A study of Mus musculus with 2 samples.

Results

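Integrin subunits were followed across the cells sorted from mouse spinal cord, as 9 genes chosen by symbol: Itgam, Itgb2, Itgb5, Itgav, Itgb1, Itga6, Itga9, Itga1 and Itga4. All 9 were in both deposited matrices, which list 27998 genes, and Itgam was listed on 2 rows. The other 17 integrin genes of the matrices are given further on. The cells came from 2 groups with 1 library each. The library labelled Runx1 Knock-out came from mice carrying Cx3cr1-CreERT2-YFP and floxed Runx1 (flxRunx1) that received tamoxifen at 1 mg per day in 5 daily injections. The wild type library came, per the labels, from the same transgenic strain given vehicle injections, and its genotype is labelled wild type. Both groups were on the C57BL/6J background, tissue was taken 4 weeks after the first injection, and YFP-positive cells were sorted. CreERT2 driven from the Cx3cr1 locus acts in microglia and other Cx3cr1-expressing cells, and how many animals went into each library was not stated. Tamoxifen was given to the knock-out group alone, so effects of the drug and of the deletion cannot be told apart. With 1 library per group no test between the groups is possible, so values are given with intervals that cover counting error only.

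Integrins are surface receptors made of 1 alpha and 1 beta chain, and they bind extracellular matrix or proteins on other cells. Inside the cell they are switched on by talin and kindlin, which bind the beta chain and couple it to actin. In myeloid cells the alpha M chain pairs with the beta chain Itgb2 to form complement receptor Mac-1. Endothelial and mural cells instead hold to the laminins and collagens of the vessel basement membrane, largely through alpha chains paired with Itgb1. The alpha V chain Itgav pairs with several beta chains, Itgb5 among them, and these pairs bind matrix proteins such as vitronectin and osteopontin.

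After barcodes with under 300 genes or over 10% mitochondrial UMIs (unique molecular identifiers, 1 per captured transcript) were removed, 2596 cells were left in the knock-out-labelled library and 4582 in the wild type library. They held 13075939 and 37446978 UMIs, with a median of 3715.5 UMIs per cell in the knock-out-labelled library and 6376 in wild type, and 9 barcodes occurred in both. Cells were clustered without any integrin gene and classes were named from marker genes, so that a member's level took no part in making a class. Although the sort collected YFP-positive cells, microglia-like cells made up 52.1% of the knock-out-labelled library and 47.4% of wild type. The knock-out-labelled library held 1353 microglia-like, 808 endothelial-like and 127 mural-like cells (pericytes and smooth muscle), and wild type 2173, 1546 and 179. The libraries stood apart: cluster 2 held 1349 of the microglia-like cells of the knock-out-labelled library and cluster 0 held all 2173 of wild type, while clusters 3 and 1 held 792 and 1543 of the endothelial-like cells. Cluster 2 was led by Cfp, Cebpb, Tnfaip3, Socs3 and Zfp36 and cluster 0 by Olfml3, Ccl3, Rgs1, Cd14 and Cxcl2, immune genes among them. Of the 12 microglia markers, 11 counted toward the name in cluster 2, none of them among its leading 10 genes, and 12 in cluster 0. Runx1, the targeted gene, had 180.4 CPM (UMIs per 1000000 UMIs of the class) in microglia-like cells of the knock-out-labelled library and 92.9 CPM in wild type, a log2 ratio of 0.96. These 3′ tags read the end of the transcript and which exons are floxed was not stated, so this level does not check the label.

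RNA from other classes was present in every class. The 9 endothelial markers summed to 1967 CPM in microglia-like cells of the knock-out-labelled library and to 5804 CPM in wild type, against 19453.5 and 17538 CPM in endothelial-like cells. The 12 microglia markers summed to 2657 CPM in endothelial-like cells of the knock-out-labelled library and 5425 CPM in wild type, against 22798 and 18416 CPM in microglia-like cells. In mural-like cells the microglia markers came to 4395 and 6813 CPM and the endothelial markers to 12564 and 12080 CPM. Hemoglobin and other erythrocyte markers came to 19986 CPM in mural-like cells of the knock-out-labelled library, against 4123 CPM in wild type. Each member's level outside its main class is therefore set beside the levels of such markers.

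**Figure D1:**
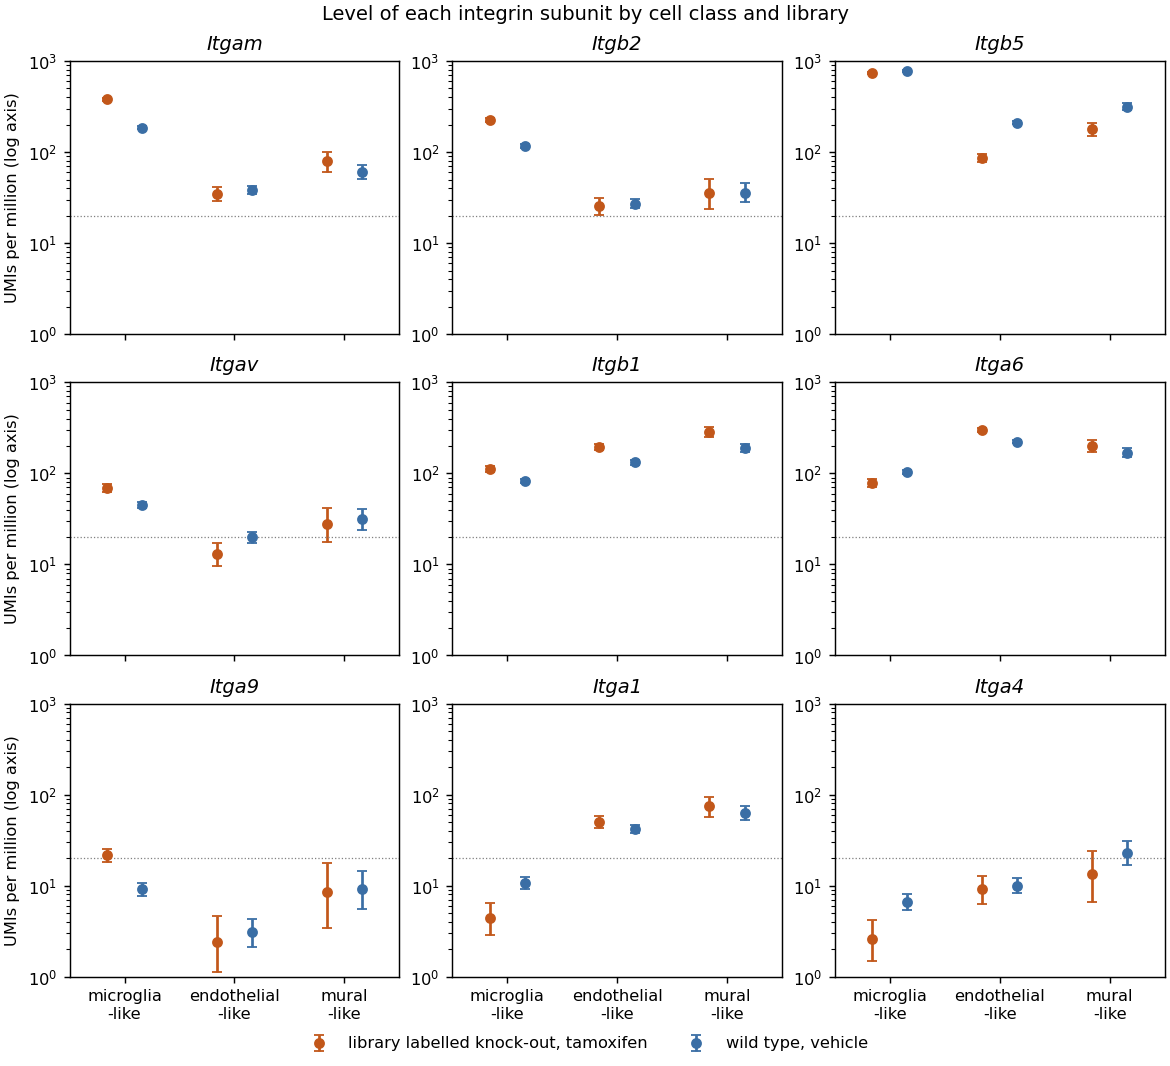
Level of each integrin subunit, in CPM on a log axis, in microglia-like, endothelial-like and mural-like cells of the knock-out-labelled library (orange, left) and the wild type library (blue, right). Points are UMI sums per class and library, bars are exact Poisson 95% intervals, and the dotted line marks 20 CPM. Itgam and Itgb2 are highest in microglia-like cells and higher there in the knock-out-labelled library, whereas Itga6 is highest in endothelial-like cells.

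In microglia-like cells, 4 integrin subunits were more than 1.5-fold higher in the knock-out-labelled library than in wild type: Itgam, Itgb2, Itgav and Itga9. None of the 7 subunits that reached 20 CPM in 1 of the libraries was lower by that fold. Of the 5752 genes that reached 20 CPM, 8.14% were past 1.5-fold higher and 12.5% past 1.5-fold lower. The median log2 ratio was 0.61 over the 7 subunits and -0.04 over all genes that entered. Itgb5, Itgb1 and Itga6 stayed within 1.5-fold, and Itga1 and Itga4 were under 20 CPM in both libraries. The log2 ratios of Itga1 and Itga4 were -1.28 (-1.93 to -0.69) and -1.35 (-2.21 to -0.59), past 1.5-fold lower. Itga9 entered through the knock-out-labelled library alone, at 21.5 CPM against 9.10 CPM. The counts of higher and lower subunits, and the median over the 7, therefore depend on the 20 CPM floor.

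Itgam encodes the alpha chain of Mac-1, CD11b, a standard surface marker of microglia. In microglia-like cells Itgam had 380.5 CPM in the knock-out-labelled library (95% counting interval 365.2 to 396.3, 2335 UMIs), against 186.0 CPM in wild type (179.3 to 192.9, 2902 UMIs). The log2 ratio was 1.03 (0.95 to 1.11), and it ran between 0.68 and 1.25 over the processing alternatives. In endothelial-like cells Itgam had 34.6 CPM in the knock-out-labelled library and 38.0 CPM in wild type. Those levels were 9.09% and 20.5% of the microglia-like levels, inside the range that the 12 microglia markers covered there, which ran between 6.89% for Gpr34 and 16.3% for Tmem119 in the knock-out-labelled library and between 17.2% and 42.1% in wild type. Whether any of it is endothelial expression was not tested. Mural-like cells had 79.0 CPM in the knock-out-labelled library and 60.6 CPM in wild type, or 20.8% and 32.6% of the microglia-like level, which also lies inside the markers' range.

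Itgam lies on mouse chromosome 7, and 250 bases upstream of its RefSeq start are shown here with those of 3 other members, to set side by side windows with and without the short core letters bound by the myeloid factor PU.1 and by RUNX proteins. Itgam and Itgav each held 2 PU.1 cores. RefSeq promoter windows (GRCm38.p6) were found for 7 of the 9 members. The letters searched on both strands were GAGGAA for the PU.1 core and TGTGGT for the core bound by RUNX proteins, and no match to one overlapped a match to the other. A PU.1 core was in 3 of the 7 windows (Itgam, Itgav and Itgb1), against 23.3% of 32851 promoter windows of the same length. A RUNX core was in 1 of the 7, Itga4, against 14.0% of all windows. Itgb5, Itga9 and Itga1 held neither. The Itga9 window, chr9:118711442-118711691, lies inside the gene, whose annotated start is at 118606690, so it precedes an internal start. Itgb2 and Itga6 had no window, and whether the cores bear on the ratios between the libraries was not tested. Itgb5 is printed as a window without a match and Itga4 as the one with a RUNX core. Capitals mark the matches, TTCCTC and ACCACA being the same cores on the other strand, and a match is a description of the letters and not a bound site. The windows are chr7:128062390-128062639 for Itgam, chr2:83724147-83724396 for Itgav, chr16:33829415-33829664 for Itgb5 and chr2:79255176-79255425 for Itga4, all on the plus strand and written 5′ to 3′.
Itgam: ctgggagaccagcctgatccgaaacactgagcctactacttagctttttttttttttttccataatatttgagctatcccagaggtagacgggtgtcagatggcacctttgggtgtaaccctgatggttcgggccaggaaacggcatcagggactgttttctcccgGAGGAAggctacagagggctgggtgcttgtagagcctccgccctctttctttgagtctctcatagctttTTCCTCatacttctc
Itgav: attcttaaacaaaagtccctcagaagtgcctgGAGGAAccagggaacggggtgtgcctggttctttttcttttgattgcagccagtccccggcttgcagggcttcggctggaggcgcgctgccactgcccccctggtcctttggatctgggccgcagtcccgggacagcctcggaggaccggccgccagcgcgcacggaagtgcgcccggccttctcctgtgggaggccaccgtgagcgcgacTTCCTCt
Itgb5: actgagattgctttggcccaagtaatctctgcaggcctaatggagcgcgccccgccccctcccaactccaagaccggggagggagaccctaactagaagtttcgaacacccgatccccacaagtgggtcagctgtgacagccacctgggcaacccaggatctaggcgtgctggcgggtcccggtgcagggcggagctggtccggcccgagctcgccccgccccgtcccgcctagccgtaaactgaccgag
Itga4: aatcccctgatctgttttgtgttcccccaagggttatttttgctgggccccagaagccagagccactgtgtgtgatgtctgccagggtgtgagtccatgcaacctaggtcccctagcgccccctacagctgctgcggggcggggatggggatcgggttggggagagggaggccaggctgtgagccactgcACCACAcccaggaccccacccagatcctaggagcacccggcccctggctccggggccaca
In the Itgam window the cores stood 84 to 79 and 15 to 10 bases before the start, and in the Itgav window 218 to 213 and 7 to 2 bases before it. The RUNX core of Itga4 stood 60 to 55 bases before its start.

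Itgb2 (CD18) is the beta chain shared by the leukocyte integrins, and it lies on chromosome 10 between 77530252 and 77565708 (GRCm38). It had 225.2 CPM (213.5 to 237.4) in microglia-like cells of the knock-out-labelled library and 116.1 CPM (110.9 to 121.6) in wild type, a log2 ratio of 0.96 (0.85 to 1.06). The ratio was between 0.59 and 1.25 over the alternatives. Neutrophil markers (8 genes), from another cell type that makes both chains, came to 8.96 CPM in microglia-like cells of the knock-out-labelled library and 159 CPM in wild type, and monocyte markers (6 genes) to 5.21 and 6.73 CPM. Itgb2 thus stood in the same order between the libraries as its partner Itgam. In endothelial-like cells it had 25.4 CPM in the knock-out-labelled library and 27.1 CPM in wild type, 11.3% and 23.3% of the microglia-like level and again inside the range of the microglia markers. In mural-like cells it had 35.3 and 35.9 CPM.

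The share of cells with a UMI gave the same order between the libraries once every cell was thinned to 1500 UMIs, a depth that no cell was under. A UMI of Itgam was found in 42.1% of microglia-like cells of the knock-out-labelled library (570 of 1353, exact 95% interval 39.5 to 44.8) and in 21.4% of wild type (465 of 2173, 19.7 to 23.2). In endothelial-like cells the shares were 4.70% and 4.72%. Without thinning the microglia-like shares were 70.3% and 62.0% and the endothelial-like ones 14.0% and 22.3%. Median depth was 3464 and 5506 UMIs in microglia-like cells and 3518 and 5729.5 UMIs in endothelial-like cells. Itgb2 was found in 26.5% of thinned microglia-like cells of the knock-out-labelled library and 14.5% of wild type, against 2.97% and 3.56% of endothelial-like cells. Unthinned, its microglia-like shares were 56.6% and 50.7%.

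Both chains of Mac-1 were seen in the same thinned cell in 155 of 1353 microglia-like cells of the knock-out-labelled library (11.5%, 9.81 to 13.3), against 73 of 2173 in wild type (3.36%, 2.64 to 4.21). In endothelial-like cells the pair was seen in 2 of 808 cells and 3 of 1546 cells. The intervals of the microglia-like shares, which cover counting error only, did not overlap. A share with both chains depends on the share with each chain, so it is no separate result. Pairing beyond the single shares was not tested. Unthinned, 43.2% of microglia-like cells of the knock-out-labelled library and 34.4% of wild type held both chains.

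**Figure D2:**
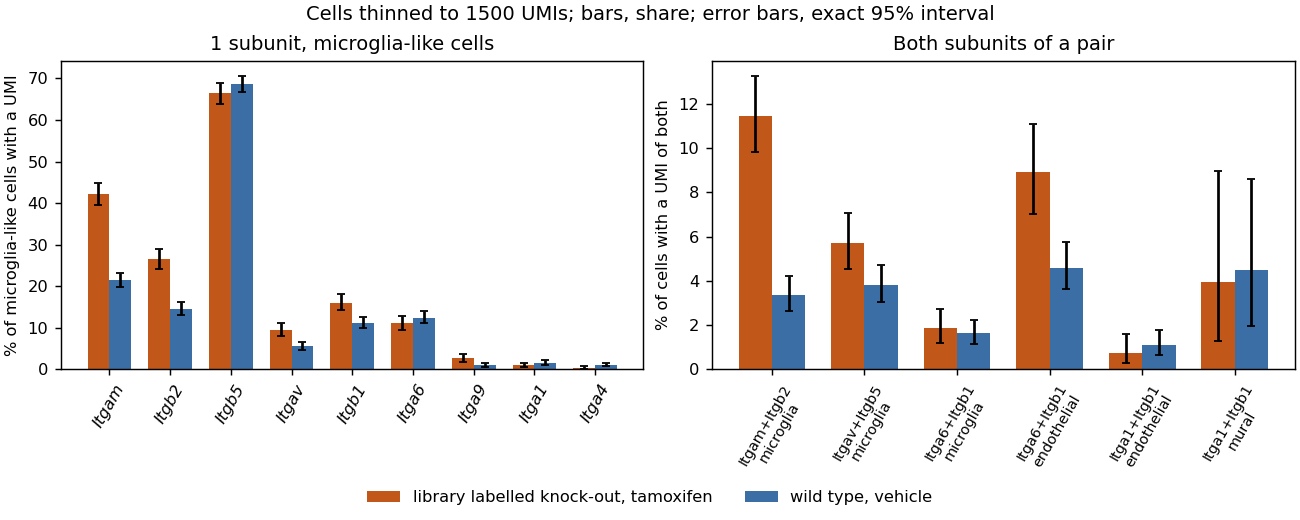
Share of microglia-like cells with a UMI of each subunit (left), and share of cells with a UMI of both chains of a pair in the named class (right), after thinning each cell to 1500 UMIs. Bars are shares in the knock-out-labelled library (orange, left) and wild type (blue, right), and error bars are exact 95% binomial intervals. Itgam and Itgb2 together were seen in 11.5% of microglia-like cells of the knock-out-labelled library and 3.36% of wild type.

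Itgb5 is a beta chain that pairs with alpha V and binds vitronectin. Its level in microglia-like cells was close in both libraries, at 738.4 CPM (717.1 to 760.2) in the knock-out-labelled library and 774.4 CPM (760.6 to 788.3) in wild type. The log2 ratio was -0.07 (-0.12 to -0.02), and between -0.40 and -0.02 over the alternatives. In thinned cells it was found in 66.4% of microglia-like cells of the knock-out-labelled library and 68.7% of wild type, with overlapping intervals.

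Outside microglia, Itgb5 was the member that differed most between the libraries in endothelial-like cells. It had 86.5 CPM in endothelial-like cells of the knock-out-labelled library and 211.4 CPM in wild type, a log2 ratio of -1.29 (-1.46 to -1.12). In mural-like cells it had 177.5 CPM in the knock-out-labelled library and 316.6 CPM in wild type, a log2 ratio of -0.83 (-1.11 to -0.57). In endothelial-like cells these levels were 11.7% and 27.3% of the microglia-like level, and in mural-like cells 24.0% and 40.9%, inside the microglia markers' range in each case. With free RNA subtracted, Itgb5 was at 0.49 CPM in endothelial-like cells of the knock-out-labelled library and at 0 CPM in wild type. The share subtracted was set from the same microglia markers, so these values are no separate check on the range above. In mural-like cells the same subtraction left 52.7 CPM in the knock-out-labelled library and 78.4 CPM in wild type. The microglia markers, at 2657 and 5425 CPM in endothelial-like cells and 4395 and 6813 CPM in mural-like cells, were also lower in the knock-out-labelled library, and their part in these ratios was not tested.

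Itgav encodes alpha V, the chain that several beta chains share, and lies on chromosome 2 between 83724397 and 83806916. Microglia-like cells had 68.6 CPM (62.2 to 75.5) in the knock-out-labelled library, against 44.8 CPM (41.5 to 48.3) in wild type. The log2 ratio was 0.61 (0.44 to 0.79), just past 1.5-fold, and between 0.40 and 1.08 over the alternatives, so that the call depends on the setting. Thinned shares were 9.39% in the knock-out-labelled library and 5.57% in wild type. Endothelial-like cells had 12.97 and 19.87 CPM, 18.9% and 44.3% of the microglia-like level and a little above the highest microglia marker in each library. Mural-like cells had 28.0 CPM in the knock-out-labelled library and 31.3 CPM in wild type, 40.8% and 69.9% of the microglia-like level, above every microglia marker. Itgav and Itgb5 were found together in 77 of 1353 thinned microglia-like cells of the knock-out-labelled library (5.69%, 4.52 to 7.06) and in 83 of 2173 of wild type (3.82%, 3.05 to 4.71), with overlapping intervals.

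Itga9, an alpha chain that pairs with Itgb1 and binds tenascin and osteopontin, was the fourth subunit past 1.5-fold higher in microglia-like cells. It had 21.5 CPM (18.0 to 25.5, 132 UMIs) in the knock-out-labelled library and 9.10 CPM (7.67 to 10.7, 142 UMIs) in wild type. The log2 ratio was 1.24 (0.89 to 1.59), between 1.02 and 1.57 over the alternatives. In thinned cells a UMI was found in 2.59% (1.81 to 3.58) of microglia-like cells of the knock-out-labelled library and 0.874% (0.527 to 1.36) of wild type. Endothelial-like cells had 2.43 and 3.09 CPM, inside the microglia markers' range. Mural-like cells had 8.51 CPM in the knock-out-labelled library and 9.24 CPM in wild type, above that range, from 7 and 18 UMIs.

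**Figure D3:**
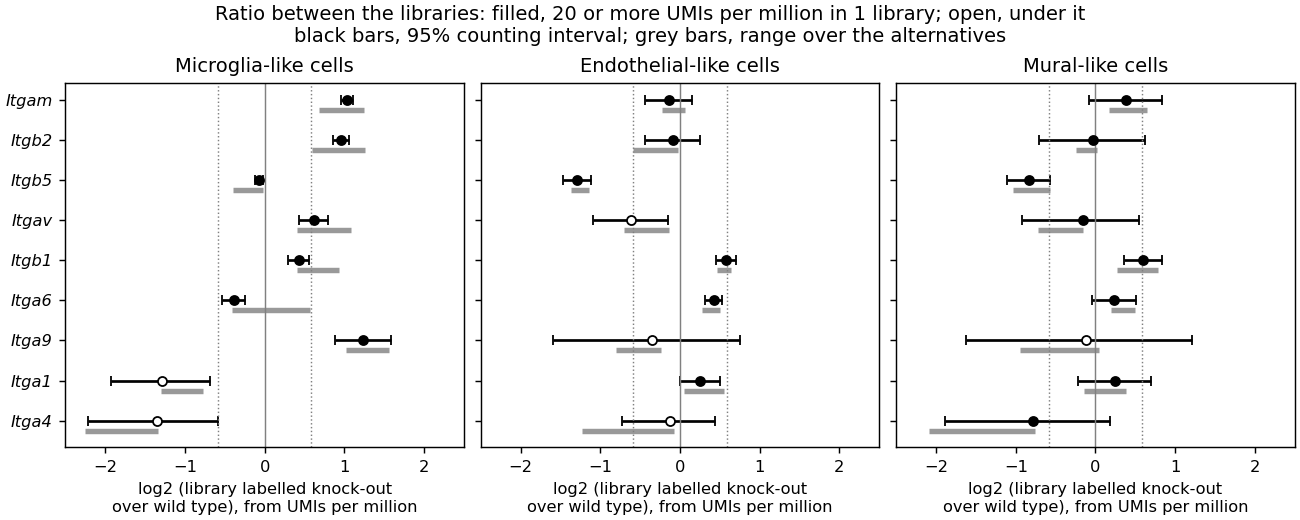
Log2 ratio of each subunit's CPM, library labelled knock-out over wild type, in 3 cell classes. Points are the ratios, filled where 20 CPM was reached in 1 library, black bars are 95% counting intervals, grey bars span the processing alternatives and dotted lines mark 1.5-fold. In microglia-like cells Itgam, Itgb2, Itgav and Itga9 lie past the upper line, and Itgb5 lies past the lower line in endothelial-like and mural-like cells.

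Itgb1, the beta chain of the laminin, collagen and fibronectin receptors, was present in all 3 classes and highest in mural-like cells. It had 285.8 CPM (250.4 to 324.7) in mural-like cells of the knock-out-labelled library and 188.3 CPM (169.6 to 208.6) in wild type, a log2 ratio of 0.60 (0.36 to 0.84). That is 1.52-fold, and over the alternatives the log2 ratio ran between 0.27 and 0.78, so the call rests on the setting. Endothelial-like cells had 196.8 CPM (182.7 to 211.6) in the knock-out-labelled library and 131.8 CPM (125.0 to 138.9) in wild type, a log2 ratio of 0.58 (0.45 to 0.71), or 1.49-fold. Microglia-like cells had 110.7 CPM (102.5 to 119.3) and 82.3 CPM (77.9 to 86.9), a log2 ratio of 0.43 (0.29 to 0.56). Itgb1 was thus higher in the knock-out-labelled library in each class, with a ratio close to 1.5-fold in the vessel classes. In microglia-like cells Itgb1 stood at 56.2% of the endothelial-like level in the knock-out-labelled library and 62.4% in wild type, above all 9 endothelial markers, which ran between 6.81% and 14.7% and between 18.0% and 44.9%.

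Itga6, the alpha chain of laminin receptors, was highest in endothelial-like cells in both libraries. It had 299.2 CPM (281.9 to 317.4) in endothelial-like cells of the knock-out-labelled library, against 223.1 CPM (214.2 to 232.3) in wild type, a log2 ratio of 0.42 (0.32 to 0.53). Mural-like cells had 199.4 and 169.3 CPM, a log2 ratio of 0.24 (-0.04 to 0.51). Those mural-like levels were 0.667 and 0.759 times the endothelial-like ones, and the endothelial markers themselves came to 12564 and 12080 CPM in mural-like cells, against 19453.5 and 17538 CPM in endothelial-like cells. How much of the mural-like level came from endothelial RNA was not tested.

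In microglia-like cells the direction of Itga6 depended on how free RNA was treated. It had 78.6 CPM (71.7 to 85.9) in the knock-out-labelled library and 102.9 CPM (97.9 to 108.0) in wild type, a log2 ratio of -0.39 (-0.54 to -0.24), within 1.5-fold. These were 26.3% and 46.1% of the endothelial-like level, above the highest endothelial marker in both libraries but only slightly so in wild type, where Egfl7 reached 44.9%. With free RNA subtracted the levels were 54.1 CPM in the knock-out-labelled library and 36.4 CPM in wild type, a log2 ratio of 0.57. Endothelial markers in the same cells were at 1967 and 5804 CPM.

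Itga6 and Itgb1, which together form a laminin receptor, were found in the same thinned endothelial-like cell in 72 of 808 cells of the knock-out-labelled library (8.91%, 7.04 to 11.1) and in 71 of 1546 of wild type (4.59%, 3.60 to 5.76). The intervals, which cover counting error only, did not overlap, and pairing beyond the shares of the single chains was not tested. In microglia-like cells the pair was seen in 1.85% and 1.61% of cells, and in mural-like cells in 7 of 127 and 4 of 179. Unthinned, 38.4% and 40.2% of endothelial-like cells held both.

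Itga1, the alpha chain of a collagen receptor, followed the vessel classes. Mural-like cells had 74.2 CPM (56.7 to 95.3) in the knock-out-labelled library and 62.6 CPM (52.0 to 74.8) in wild type. Endothelial-like cells had 50.3 CPM (43.3 to 58.0) and 42.1 CPM (38.3 to 46.2). The log2 ratios were 0.24 (-0.22 to 0.70) in mural-like and 0.26 (0.00 to 0.51) in endothelial-like cells, both within 1.5-fold. Microglia-like cells had 4.40 CPM in the knock-out-labelled library and 10.7 CPM in wild type. These were 8.75% and 25.4% of the endothelial-like level and inside the range of the endothelial markers. Whether any of it is microglial expression was not tested. Pelo overlaps Itga1 on the same strand of chromosome 13, and reads shared between them could be counted to either.

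Itga4, an alpha chain that pairs with Itgb1 and binds Vcam1, was counted too rarely in most classes to compare. Mural-like cells had 13.4 CPM (6.68 to 23.9, 11 UMIs) in the knock-out-labelled library and 23.1 CPM (16.8 to 30.9, 45 UMIs) in wild type. The log2 ratio of -0.79 is past 1.5-fold lower, but its counting interval, -1.89 to 0.19, includes 0. Endothelial-like cells had 9.19 and 10.0 CPM, and microglia-like cells 2.61 CPM in the knock-out-labelled library and 6.67 CPM in wild type, 28.4% and 66.5% of the endothelial-like level. Cerkl overlaps Itga4 on the opposite strand.

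**Figure D4:**
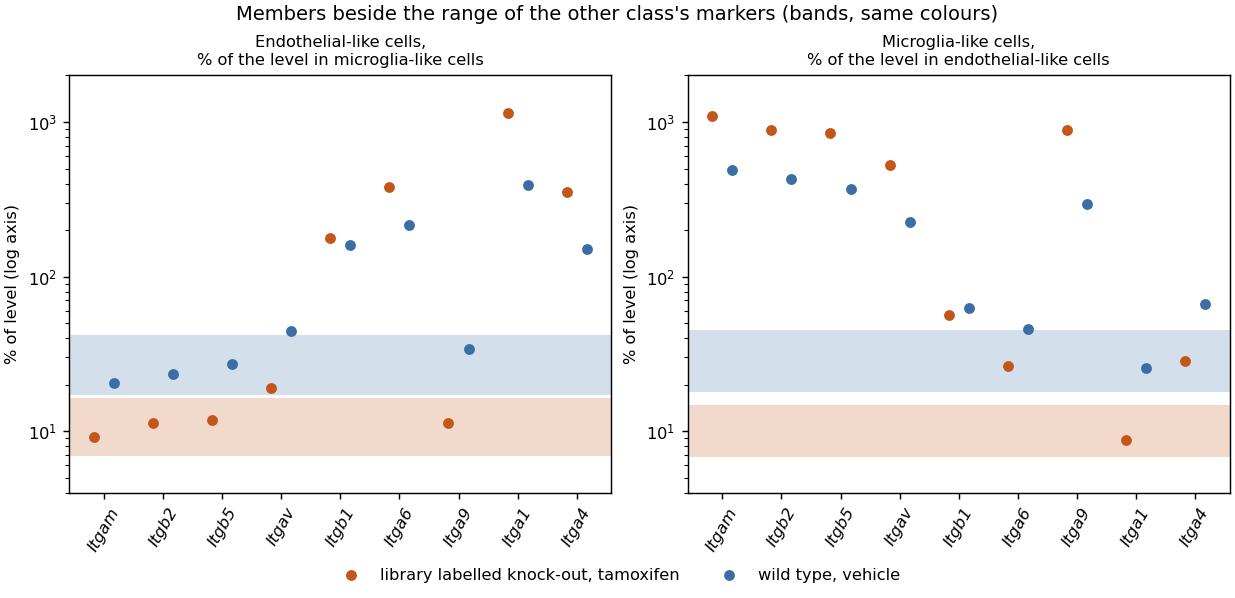
Level of each subunit in endothelial-like cells as a percentage of its level in microglia-like cells (left), and the converse (right), on a log axis, for the knock-out-labelled library (orange) and wild type (blue). Bands span the same percentage for the 12 microglia markers (left) and the 9 endothelial markers (right). Itgam, Itgb2, Itgb5 and Itga9 lie inside the left bands, and Itga1 inside the right ones.

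Beside the 4 calls in microglia-like cells, endothelial-like cells had 0 members past 1.5-fold higher and 1 past 1.5-fold lower, Itgb5, of 6 that reached 20 CPM, where 5.58% of 6295 genes were higher and 6.16% lower. Mural-like cells had 1 higher (Itgb1) and 2 lower (Itgb5 and Itga4) of 8, where 10.6% of 6782 genes were higher and 8.64% lower. The median log2 ratio of the members was 0.08 in endothelial-like and 0.10 in mural-like cells, against 0.09 and 0.05 over all genes that entered. Within each library the classes themselves differed more. Microglia-like over endothelial-like levels were past 1.5-fold higher for 5 members (Itgam, Itgb2, Itgb5, Itgav and Itga9) and lower for 3 (Itgb1, Itga6 and Itga1) in the knock-out-labelled library, where 19.4% and 41.2% of genes were. In wild type they were higher for 4, Itga9 being under 20 CPM, and lower for the same 3, where 14.9% and 27.1% of genes were. Mural-like over endothelial-like levels were past 1.5-fold higher for Itgam, Itgb5 and Itgav and lower for Itga6 in the knock-out-labelled library, where 12.7% and 9.89% of genes were. In wild type they were higher for Itgam, Itgav and Itga4 and lower for none, where 7.7% and 3.76% of genes were. The Itgam and Itgb5 levels in mural-like and endothelial-like cells lie inside the ranges of the microglia markers, as given above.

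Among the 4 classes with 50 or more cells in both libraries, erythrocyte-like cells included, the leading class was the same in both libraries for the members other than Itga9, and the full order was the same for Itgam, Itgb5, Itgb1 and Itga1. For each of these, some neighbouring lower classes had overlapping intervals in both libraries, so their place in the order is not separable. Itgam, Itgb2, Itgb5 and Itgav were highest in microglia-like cells in both libraries, with intervals apart from the next class, mural-like cells. Itgb1 was highest in mural-like and next in endothelial-like cells with separate intervals, and Itga6 highest in endothelial-like cells. For Itga1 mural-like cells led in both libraries, but in the knock-out-labelled library their interval overlapped that of endothelial-like cells. For Itga4 the intervals of the leading classes overlapped in both libraries. Itga9 led in microglia-like cells in the knock-out-labelled library, while in wild type microglia-like cells at 9.10 CPM and mural-like cells at 9.24 CPM overlapped.

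Vessel cells were divided further with a finer clustering (resolution 1.0), into capillary-like (708 and 1263 cells), arterial-like (98 and 282), venous-like (30 and 95), pericyte-like (62 and 59) and smooth-muscle-like cells (65 and 119). Itgb1 was highest in smooth-muscle-like cells, at 348.5 CPM (291.8 to 413.0) in the knock-out-labelled library and 210.3 CPM (185.1 to 237.9) in wild type. Pericyte-like cells had 231.5 CPM (188.7 to 281.0) and 153.8 CPM (126.7 to 185.1), below smooth-muscle-like cells in the knock-out-labelled library with separate intervals, with intervals that meet at their ends in wild type. The 3 endothelial types had between 184.1 and 222.1 CPM in the knock-out-labelled library and between 131.1 and 137.6 CPM in wild type, with overlapping intervals among them.

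Itga1 was highest in pericyte-like cells, at 97.6 CPM (70.6 to 131.4) in the knock-out-labelled library and 76.9 CPM (58.1 to 99.9) in wild type. Smooth-muscle-like cells had 47.2 CPM (27.9 to 74.5) and 55.1 CPM (42.6 to 70.1), and capillary-like cells 48.4 and 41.5 CPM. The intervals of pericyte-like and capillary-like cells were apart in both libraries, and those of pericyte-like and smooth-muscle-like cells overlapped. Itga6 was lowest in smooth-muscle-like cells, at 152.0 and 127.7 CPM, and capillary-like cells had 312.4 CPM (293.3 to 332.4) in the knock-out-labelled library and 230.4 CPM (220.1 to 241.0) in wild type. Arterial-like cells had 216.1 CPM (177.3 to 260.9) and 199.7 CPM (182.4 to 218.2), below capillary-like cells with separate intervals in both libraries. Itga4 reached 28.8 CPM in pericyte-like cells of wild type from 21 UMIs, against 15.9 CPM in the knock-out-labelled library from 7 UMIs.

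**Figure D5:**
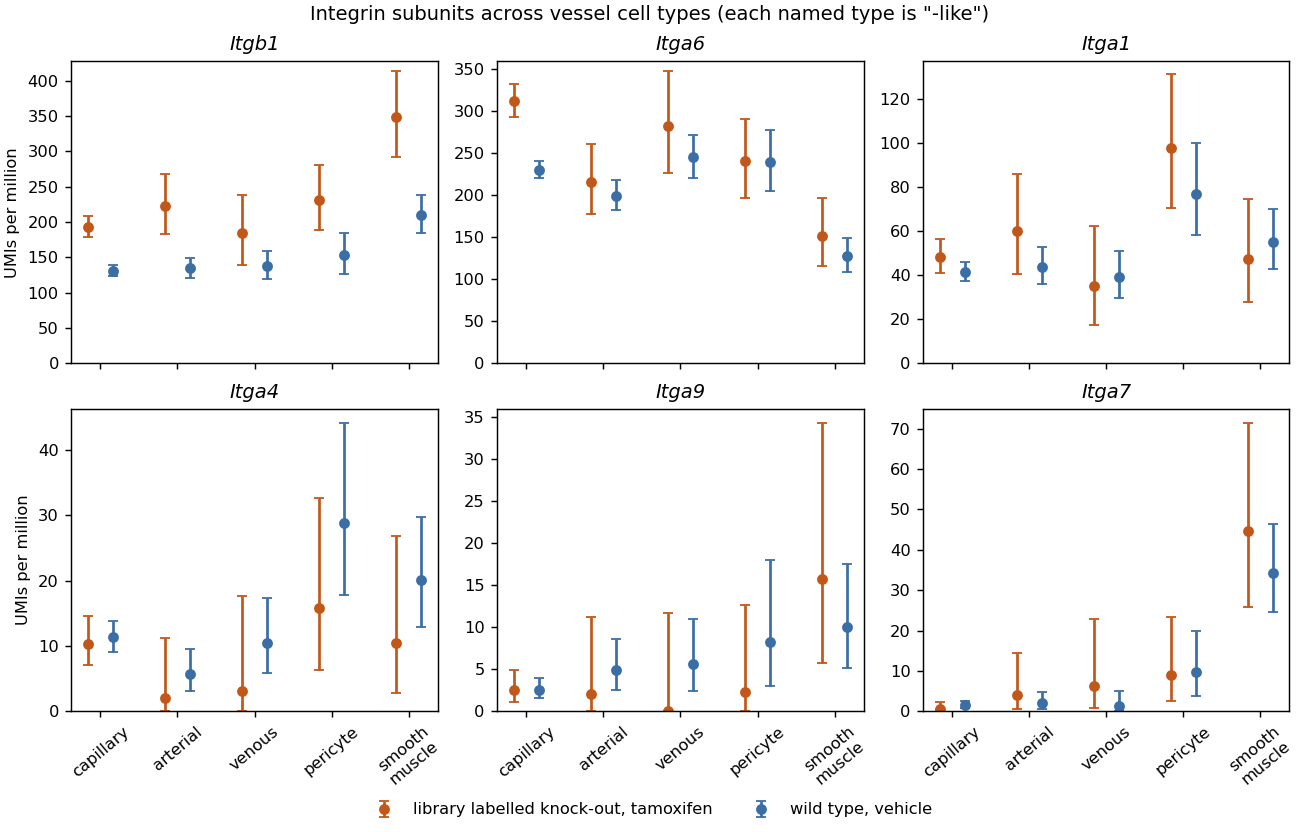
CPM of Itgb1, Itga6, Itga1, Itga4, Itga9 and Itga7 in capillary-like, arterial-like, venous-like, pericyte-like and smooth-muscle-like cells of the knock-out-labelled library (orange, left) and wild type (blue, right), with exact Poisson 95% intervals. Itga1 is highest in pericyte-like cells, and Itgb1 and Itga7 in smooth-muscle-like cells.

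Within the microglia-like cells, the finer clustering gave 2 large clusters per library that differed in chemokine RNA. In the knock-out-labelled library Cxcl2 was at 228.6 CPM in cluster 3 (792 cells) and 47.4 CPM in cluster 5 (557 cells), and in wild type at 238.6 CPM in cluster 1 (1240 cells) and 67.3 CPM in cluster 2 (933 cells). Itgam had 394.5 CPM (375.6 to 414.1) and 351.4 CPM (325.7 to 378.7) in clusters 3 and 5, against 197.2 CPM (189.0 to 205.6) and 158.2 CPM (146.8 to 170.3) in clusters 1 and 2. Itgb2 had 223.3 and 230.0 CPM in the knock-out-labelled library and 120.2 and 105.9 CPM in wild type. Both clusters of the knock-out-labelled library lay above both of wild type for Itgam and Itgb2. Itgav had 70.0 and 66.3 CPM against 46.4 and 40.9 CPM, and Itga9 22.4 and 19.4 CPM against 8.99 and 9.39 CPM.

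Of the 17 other integrin genes, none reached 20 CPM in microglia-like or endothelial-like cells, and Itga5 and Itga7 did so in mural-like cells. Itga5, the alpha chain of the classical fibronectin receptor, had 23.1 CPM (13.9 to 36.1) in mural-like cells of the knock-out-labelled library and 9.75 CPM (5.87 to 15.2) in wild type, from 19 UMIs each. Venous-like cells, a class apart from the endothelial-like one, had Itga5 at 31.7 CPM (15.2 to 58.4, 10 UMIs) in the knock-out-labelled library. In wild type they had 18.2 CPM (11.9 to 26.6, 26 UMIs). Itga7, a laminin receptor chain of muscle, had 25.5 CPM in mural-like cells of the knock-out-labelled library and 24.6 CPM in wild type. By vessel type Itga7 stood at 44.5 CPM (25.9 to 71.3) and 34.2 CPM (24.5 to 46.4) in smooth-muscle-like cells and 9.08 and 9.61 CPM in pericyte-like cells. Itga8, another alpha chain of smooth muscle, had 13.1 CPM in smooth-muscle-like cells of the knock-out-labelled library and 14.2 CPM in wild type. Itga2b, the platelet alpha chain, had 6.35 CPM (0.769 to 22.9, 2 UMIs) in venous-like cells of the knock-out-labelled library and 25.8 CPM (18.2 to 35.6) in wild type.

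Genes whose proteins switch integrins on or link them to actin were past 1.5-fold about as often as genes at large in microglia-like cells. Of 36 adaptors and activators in the files, 29 reached 20 CPM in microglia-like cells, with 3 past 1.5-fold higher in the knock-out-labelled library and 4 lower, where 8.14% and 12.5% of all genes were, and a median log2 ratio of 0.12 against -0.04 over all genes. The higher ones included the actin crosslinker Actn1, with 61.4 CPM in the knock-out-labelled library and 16.4 CPM in wild type (log2 ratio 1.90), and Ptk2b, a relative of focal adhesion kinase, with 55.6 and 27.8 CPM (log2 ratio 1.00). The lower ones included the kindlin Fermt2, with 29.2 and 86.8 CPM (log2 ratio -1.57), and the parvin Parvb, with 26.2 and 51.4 CPM (log2 ratio -0.97). Fermt2 had 372.7 and 280.7 CPM in endothelial-like cells, and endothelial markers in microglia-like cells were at 1967 and 5804 CPM. The talin Tln1 had 144.9 CPM in microglia-like cells of the knock-out-labelled library and 120.1 CPM in wild type, and the myeloid kindlin Fermt3 136.9 and 109.4 CPM, both within 1.5-fold.

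In endothelial-like cells 31 adaptors reached 20 CPM, with 3 higher (Cyth1, Actn1 and Fyn) and 6 lower in the knock-out-labelled library, where 5.58% and 6.16% of all genes were. The lower ones included the myeloid signalling adaptor Tyrobp, with 399.2 CPM in the knock-out-labelled library and 1292 CPM in wild type, and the talin recruiter Apbb1ip, with 34.1 and 65.2 CPM. Mural-like cells had 2 higher and 8 lower of 31, where 10.6% and 8.64% of all genes were, with Tyrobp at 606.8 and 1454 CPM and Fermt3 at 23.1 and 41.1 CPM among the lower. The microglia markers in those classes were lower in the knock-out-labelled library as well, and their part in these ratios was not tested.

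Among 35 integrin ligands, 13 reached 20 CPM in microglia-like cells, with 2 higher and 8 lower in the knock-out-labelled library, where 8.14% and 12.5% of all genes were. Their median log2 ratio was -0.89, against -0.04 over all genes. Some of the lower ones, among them Hspg2, Col4a2 and Lamb2, entered through wild type alone. The count of lower ligands and the median therefore depend on the 20 CPM floor. Icam1, a ligand of the Itgb2 integrins, had 297.1 CPM in the knock-out-labelled library and 154.5 CPM in wild type, a log2 ratio of 0.94. Nrros, which anchors latent TGF-beta on microglia for integrins to release, had 146.0 and 84.1 CPM, a log2 ratio of 0.80. The lower ones with the largest ratios were vessel and basement membrane genes: Hspg2 (6.68 and 22.4 CPM), Col4a2 (10.4 and 33.9 CPM), Icam2 (36.7 and 116.7 CPM) and Lamb2 (12.9 and 38.3 CPM). Endothelial markers in the same cells were at 1967 and 5804 CPM, and their part in these ratios was not tested.

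In endothelial-like cells 16 ligands entered, with 1 higher and 2 lower in the knock-out-labelled library, where 5.58% and 6.16% of all genes were. Vcam1, the ligand of the Itga4 and Itgb1 pair, had 65.7 CPM in the knock-out-labelled library and 23.1 CPM in wild type, a log2 ratio of 1.505, and in mural-like cells 91.2 and 43.6 CPM, a log2 ratio of 1.06. Vcam1 is also a marker that names the venous-like class, whose 30 and 95 cells are not counted as endothelial-like. The endothelial-like level of Vcam1 therefore depends on that split, and the ratio without the split was not tested. Spp1 had 12.2 and 26.1 CPM in endothelial-like cells, and Tgfb1 116.0 and 179.3 CPM. Mural-like cells had 7 ligands higher and 2 lower of 22, where 10.6% and 8.64% of all genes were. Besides Vcam1 the higher ones included Lrrc32, which holds latent TGF-beta, with 30.4 and 14.4 CPM, and the laminin chain Lama2, with 25.5 and 13.9 CPM. Both entered through the knock-out-labelled library alone, Lrrc32 from 25 and 28 UMIs and Lama2 from 21 and 27. For each gene the counting intervals of the libraries overlapped. With free RNA subtracted the log2 ratio was 0.63 for Lrrc32 and 0.32, within 1.5-fold, for Lama2. Spp1 was among the lower ones, with 23.1 CPM in the knock-out-labelled library and 40.03 CPM in wild type.

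Genes most like each member were ranked by Pearson's r of log2(CPM + 20) over 11 points, each a cluster of at least 50 cells in 1 library, among 7583 genes. These points share libraries and free RNA, so the values are a description. Itgam was closest to Basp1 (0.994), Sirpa (0.990) and Tagap (0.990), and Itgb2 to Cmtm3 (0.988), Bcl2a1d (0.987) and Sdc4 (0.986). Itgb5 was closest to Spi1 (0.993), the gene of PU.1, then Cyth4 (0.992) and Cd84 (0.989), and Itgav to Maf (0.986), Gng2 (0.986) and Marcks (0.983). Itga9 was closest to Tgfbi (0.969), Man2a2 (0.967) and Cerk (0.965).

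The vessel members had other neighbours. Itga6 was closest to the junction gene Jam2 (0.991), the Wnt effector Lef1 (0.989) and Polk (0.984), and Itga1 to the transcription factor Ebf1 (0.993), Mprip (0.987) and Sparcl1 (0.986). Itgb1 was closest to the kinase Rock1 (0.977), Cycs (0.975) and Smc6 (0.971). Itga4 had 2810428I15Rik at 0.956, Atf5 at 0.920 and Smarcd1 at 0.911.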

How the data were processed

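The deposited matrices hold whole-number UMI counts of each gene in each kept barcode, and the labels' protocols describe 10x Chromium 3′ v2 libraries. Per the submitters' processing notes, Seurat 2.1.0, Cell Ranger 2.0.1 and STAR were used and mm10 and GRCm38.p5 were the builds, without a stated role. The authors' rule for keeping barcodes was not stated.

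Barcodes needed 300 genes and at most 10% mitochondrial UMIs. Log-normalised counts of 2000 variable genes, without integrins, Runx1 and sex-linked genes, gave 30 principal components, a 15-nearest-neighbour graph and Leiden clusters at resolution 0.5 (scanpy 1.11.5, leidenalg 0.10.2, Python 3.11.15). A marker counted if it had 20 CPM and over 50% of its highest cluster. A cluster was named with 3 counted markers, 2 of them among its top 10 genes, or 50% of a list with no other type's summed markers at 40% or more of their highest cluster. This naming rule was set after the clusters were seen. No doublets were removed in the values reported, and clusters that fit no type stayed unnamed (150 cells of the knock-out-labelled library and 453 of wild type).

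UMIs were summed per class and library and divided by the class total to give CPM, with exact Poisson intervals. Ratios have exact conditional binomial intervals and shares exact Clopper-Pearson ones. All intervals cover counting error only. A gene entered a comparison with 20 CPM in 1 library and was called past 1.5-fold. Genes near this floor could enter through the library where they were higher alone, so counts and medians over a list depend on the floor. No p-value was computed. The free-RNA alternative subtracted the whole-library profile at the largest share that markers of another class allow: 21.5% and 53.3% in microglia-like, 20.1% and 45.0% in endothelial-like, and 33.3% and 56.5% in mural-like cells of the knock-out-labelled library and wild type. A gene left under 5 CPM in either library by the subtraction had no ratio and was not counted. Calls and intervals were run on simulated Poisson counts with set folds. These counts hold no free RNA and no variation between libraries or cells, so the run checks the calculation only. Named genes were all 9 members, up to 4 genes per list and class past 1.5-fold with the largest ratios, other integrins at 20 CPM, and the 3 genes most like each member; Fermt3, Tln1, Icam1, Nrros, Actn1 and Fyn in endothelial-like cells, Itga8, Itga2b, the cluster leaders and Cxcl2 were chosen after their values were seen. The members and lists were chosen with earlier results of these data known. Positions are from GENCODE M21 (27645 of 27998 gene IDs matched), and promoters from RefSeq on GRCm38.p6. Alternatives were another scaling, totals without mitochondrial, ribosomal and hemoglobin genes, per-cell means, thinning, subtraction of free RNA, Scrublet, resolution 1.0, a marker gate, all barcodes and a floor of 5 CPM.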

Additional observations from a re-analysis of the deposited data

Results flagged for a closer look

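A second matrix row carrying the name Itgam, ENSMUSG00000108596, held UMIs in microglia-like cells although it entered no comparison. It had 4.07 CPM in the knock-out-labelled library (25 UMIs) and 3.46 CPM in wild type (54 UMIs). In endothelial-like cells it had 0 UMIs in the knock-out-labelled library and 11 UMIs in wild type. GENCODE M21 names this ID Gm49368, a gene that overlaps Itgam on the same strand of chromosome 7. Adding the row to the other Itgam row left the Itgam log2 ratio inside its counting interval in each of the 3 classes, an alternative chosen after seeing the data.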

How the results depend on the processing

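No paired analysis was possible because each group had 1 library. In microglia-like cells the counts of 4 members higher and 0 lower were within 1.5 times of their values under every alternative run, except that 2 were lower at a floor of 5 CPM. With per-cell means 3 were higher, of 6 that entered. Under the other alternatives 4 were higher, but not always the same genes. With free RNA subtracted Itgb1 was past 1.5-fold (log2 ratio 0.93) and Itgav was not (0.40). With thinning and the marker gate Itgb1 was past it (0.59 in each) and Itga9 was under 20 CPM. In endothelial-like cells 1 member was higher (0 as reported) with per-cell means, thinning and the marker gate. There 2 were lower (1 as reported) without mitochondrial, ribosomal and hemoglobin genes, with per-cell means, with the marker gate and at 5 CPM, and 0 with free RNA subtracted. With that subtraction Itgb5 had no ratio and 3 members entered (6 as reported). In mural-like cells 0 were higher (1 as reported) with median-of-ratios scaling, thinning, free RNA subtracted, Scrublet and all barcodes, and 2 with the marker gate, while 1 was lower (2 as reported) with free RNA subtracted.

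Of the other integrins, adaptors and ligands together, subtraction of free RNA left 3 higher (5 as reported) and 4 lower (12) in microglia-like cells, 1 lower (8) in endothelial-like cells, and 6 higher (10) and 3 lower (10) in mural-like cells. Genes under 5 CPM in either library after subtraction had no ratio. In these classes 32 (42 as reported), 40 (47) and 49 (55) genes entered. Part of the fall in these counts is therefore genes that left the comparison, not genes that moved within 1.5-fold. In endothelial-like cells 10 were higher with the marker gate and 7 at 5 CPM (4 as reported). Of 238 single log2 ratios under alternatives, 26 moved outside their counting interval and 0 called ratios changed sign. The cause was not tested. The marker gate kept 440 and 87 microglia-like, 420 and 124 endothelial-like and 108 and 174 mural-like cells, so its values rest on fewer cells. Depth limits Itga4, Itga9 and the mural-like class most: 11 and 45 UMIs gave the Itga4 ratio there.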

Other observations

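UMIs of the myeloid integrins were also counted in border-associated macrophage-like cells, where the 12 microglia markers summed to 18124 CPM in the knock-out-labelled library and 12325 CPM in wild type, so that these levels cannot be told apart from microglial RNA. In 6 such cells of the knock-out-labelled library Itgam had 235.4 CPM (112.9 to 432.9) and in 24 of wild type 150.3 CPM (106.9 to 205.5). Itgb5 had 494.3 CPM (306.0 to 755.6) and 555.0 CPM (468.0 to 653.4), and Itgb2 141.2 and 84.8 CPM. The intervals of the libraries overlapped for each of these genes. Fibroblast-like cells had Itgb1 at 224.8 CPM (140.9 to 340.4) in 11 cells of the knock-out-labelled library and 116.2 CPM (74.4 to 172.9) in 13 cells of wild type, and Itga1 at 71.5 and 48.4 CPM. Ependymal-like cells had Itga6 at 28.4 CPM (10.4 to 61.9) in the knock-out-labelled library and 85.1 CPM (54.5 to 126.6) in wild type, and Itga1 at 4.74 and 7.09 CPM, from 1 and 2 UMIs.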
